A study of Juglans regia with 15 samples.

Results

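The endopleura is the thin seed coat that wraps the walnut (Juglans regia) kernel. It is maternal tissue derived from the integument of the ovule, it surrounds the embryo while the embryo lays down oil and storage protein, and it is known for the phenolic compounds that give the kernel its skin color. A gene whose transcript is most abundant at a middle stage of such a tissue marks a window of development, and its transcript may then fall back quickly or stay high into maturity.

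The genes described here are the 100 genes with the clearest maximum at 91 days after pollination (DAP). Transcript levels are in FPKM, fragment numbers scaled to the length of the gene and the size of the library. A gene entered if it had at least 1 FPKM in 3 or more of the 15 libraries, and 22310 of the 39414 genes did. Of these, 735 genes (3.29%) had all 3 libraries at 91 DAP above every library of the other stages, and the 100 with the largest gap were kept. The gap is the difference between the 91 DAP mean of log2(FPKM + 1) and the next highest stage mean. Because the 91 DAP values chose the genes, the height of the peak is given as a description and is not tested.

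The libraries came from a developmental series of a single cultivar, Linzaoxiang, with no treatment or genotype contrast in the labels. The 5 stages were 35, 63, 91, 119 and 147 DAP, with 3 libraries each, and each library pooled the endopleuras of 7 nuts. The labels do not say whether the pools came from separate trees, so p-values measure the spread between pools. The number of reads per library is unknown from these values, and the summed FPKM of a library ran from 851621 to 1113620. JrANR, the walnut homologue of the Arabidopsis seed coat gene BANYULS, was present in all 15 libraries at 71.0 to 1058 FPKM. Transcripts of 4 embryo storage and oil body genes (2 glutelins, an oleosin and a late embryogenesis abundant protein) summed to at most 2.67 FPKM at 35 DAP and to between 1784 and 19562 FPKM in the later libraries, and whether these came from embryo tissue or from the seed coat cannot be told apart. In whole tissue, a smaller share of a cell type and less transcript per cell cannot be told apart.

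The 91 DAP maxima were met by more genes than those of 63 and 119 DAP and by fewer than those of 35 and 147 DAP. The same criterion was met for 35 DAP by 5619 genes (25.2%), for 63 DAP by 664 (2.98%), for 119 DAP by 237 (1.06%) and for 147 DAP by 2121 (9.51%). The gap of the 100 genes ran from 0.76 to 3.05 with a median of 1.03. For the 100 largest gaps at 35, 63, 119 and 147 DAP the median was 4.70, 2.18, 1.10 and 3.50. In mean FPKM, the level at 91 DAP was 1.69 to 9.74 times that of the next stage, with a median of 2.17, and 61 of the 100 genes reached 2-fold. Only 3 genes had a gap of 2 or more. The lowest library at 91 DAP stood at a median of 1.52 times the highest library of any other stage, and in the closest case at 1.00 times.

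The genes spanned more than 3 orders of magnitude in abundance. Their mean at 91 DAP ran from 1.43 to 4378 FPKM with a median of 33.8 FPKM, against 10.7 FPKM over all tested genes. The choice of the genes by a high level at 91 DAP favours this difference. There were 17 genes under 10 FPKM, 49 from 10 to under 100 and 34 at 100 or more, of which 5 passed 1000. Every library held a value above 0 for 88 genes. For 5 genes all 3 libraries of some stage were listed at 0, in 4 of them at 35 DAP. Without the 91 DAP libraries, 95 genes would still have passed the filter of 1 FPKM in 3 libraries, and 1 gene passed through those libraries alone.

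Summed over the 100 genes, the transcript level was low in young endopleura, rose, and came down again. The sum was 2912, 2994 and 2966 FPKM in the 3 libraries at 35 DAP, which is 0.336% to 0.352% of all FPKM. It was 8875, 7776 and 8630 FPKM at 63 DAP, and at the peak 20588, 21742 and 20419 FPKM, where the genes took 2.05% to 2.16% of the library. After the peak it went to 9282, 8041 and 11466 FPKM (119 DAP) and to 5912, 6537 and 4845 FPKM (147 DAP). The 3 libraries at 91 DAP lay close together and far above all others. The choice of the genes fixes that the sum is highest at 91 DAP and holds down the levels on either side. It does not fix the order of the other 4 stages. The storage genes did not follow the same order within a stage. Their sum was 9814, 4865 and 7015 FPKM at 91 DAP, and 6243, 19562 and 3493 FPKM at 119 DAP, where replicate 2 was the highest library for the storage genes and the lowest for the 100 genes.

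**Figure D1:**
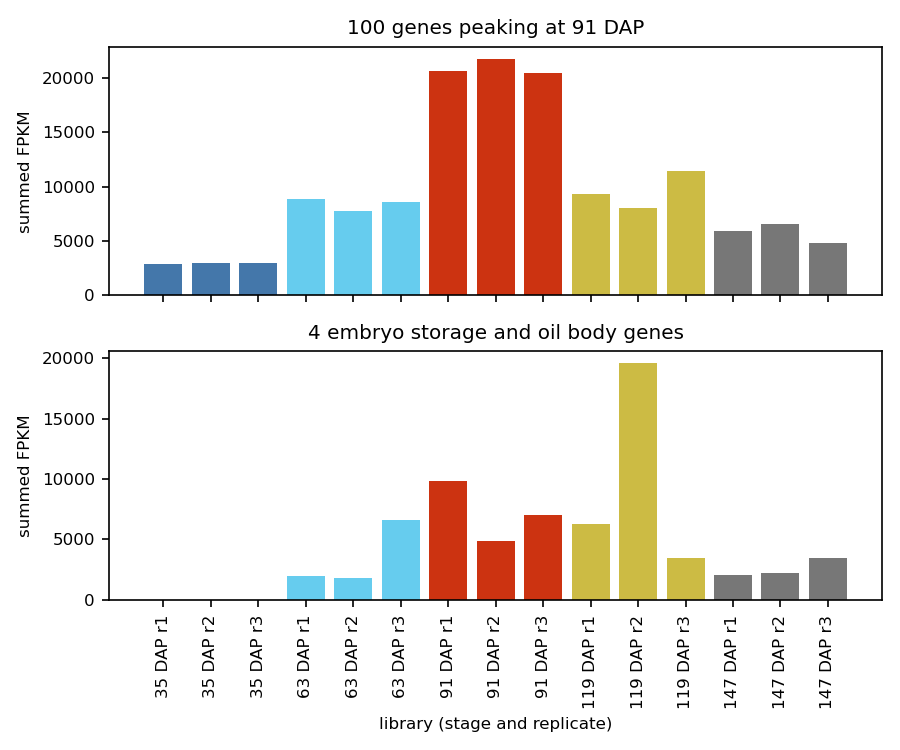
Summed FPKM of the 100 genes (top) and of 4 embryo storage and oil body genes (bottom) in each of the 15 libraries, as bars from 0 colored by stage. The 100 genes reach 20419 to 21742 FPKM in the 91 DAP libraries, and the storage genes reach 19562 FPKM in replicate 2 at 119 DAP, where the 100 genes stand at 8041 FPKM.

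The genes differed in which side of the peak was higher. The next highest stage was 119 DAP for 46 genes, 63 DAP for 37, 147 DAP for 9 and 35 DAP for 8. The lowest stage was 35 DAP for 61 genes and 147 DAP for 37, with 1 gene each at 63 and 119 DAP. JreChr10G11118, at 0 at both 35 and 119 DAP, is counted at 35 DAP. Mean levels were under 1 FPKM for 24 genes at 35 DAP and for 18 genes at 147 DAP.

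**Figure D2:**
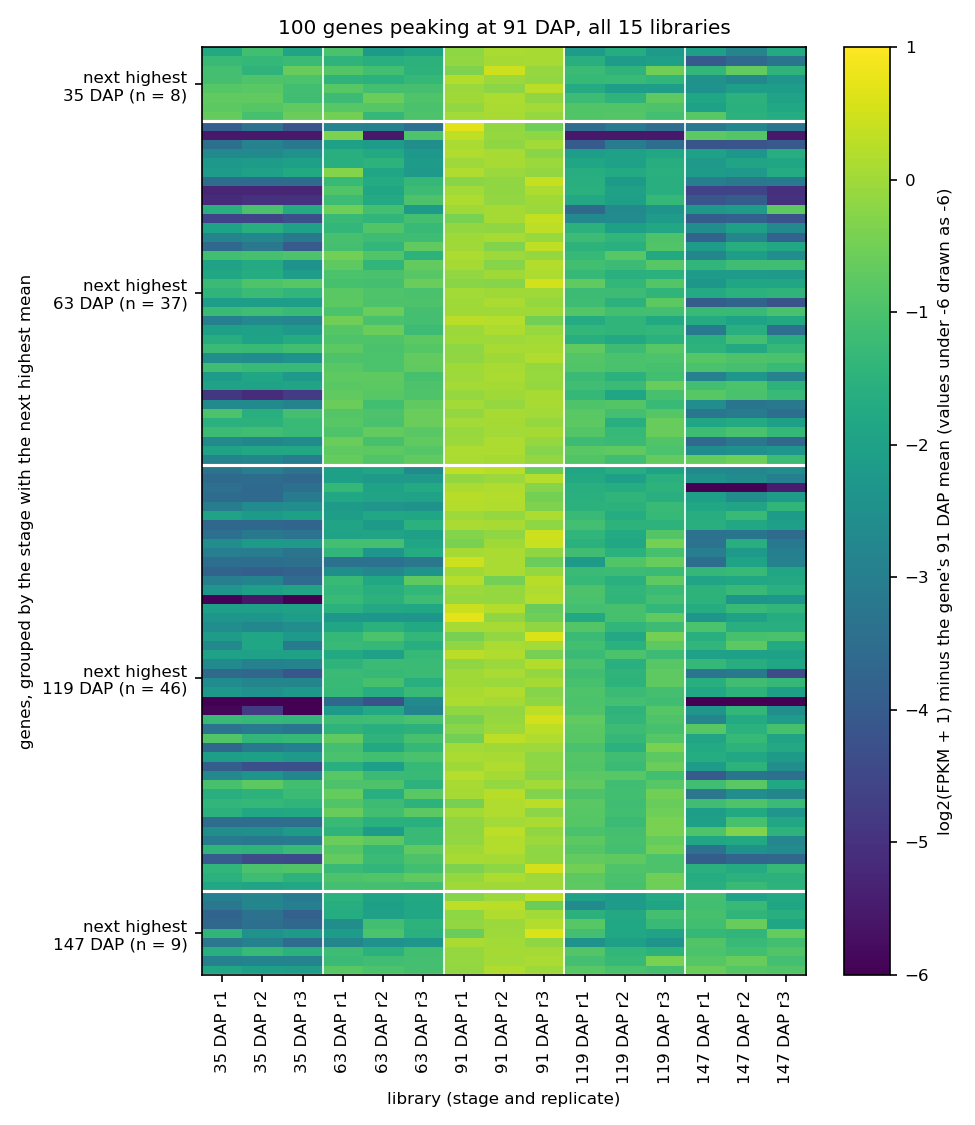
Each row is 1 of the 100 genes and each column 1 of the 15 libraries; color is log2(FPKM + 1) minus the mean of the gene at 91 DAP, and rows are grouped by the stage with the next highest mean. In the groups with 63 DAP (37 genes) or 119 DAP (46 genes) next, the darkest columns are those of 35 and 147 DAP.

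The largest gap belonged to JreChr16G11342, a gene model of 240 bp on chromosome 16 (8763695 to 8763934) without a described function in the sources used here. Its levels at 91 DAP were 115, 65.2 and 48.6 FPKM. The other libraries held 3.82, 6.02 and 3.04 FPKM at 35 DAP, 8.84, 8.58 and 6.03 at 63 DAP, 5.40, 7.55 and 5.45 at 119 DAP, and 7.07, 9.39 and 6.52 at 147 DAP. The transcript thus stayed at 9.39 FPKM or less outside a 9.74-fold peak, and its replicates at 91 DAP differed by more FPKM than those of any other stage.

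JreChr02G10326 (chromosome 2, 15903102 to 15907408) had the third largest gap and a low transcript outside the peak. It measured 18.8, 15.3 and 17.7 FPKM at 91 DAP, 3.48, 3.09 and 2.19 at 63 DAP, 0.701, 1.45 and 1.01 at 35 DAP, 0.165, 1.22 and 0.638 at 119 DAP, and 0, 0.0216 and 0.0991 at 147 DAP. The gene rose from 35 to 63 DAP by 0.94 ± 0.22 on the log2(FPKM + 1) scale (SE, limma, adjusted p = 0.00287). It was lower at 119 than at 63 DAP (log2 change -1.26 ± 0.22, adjusted p = 0.000546), the deepest called fall between these stages after JreChr10G11419. So its transcript had dropped below the level from before the peak by the next stage.

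JreChr05G10880 (chromosome 5) and JreChr08G11857 (chromosome 8, 5133251 to 5134755) show how different backgrounds can underlie a similar gap. JreChr05G10880 had 14.0, 14.9 and 18.2 FPKM at 91 DAP over 0.334 to 4.68 FPKM elsewhere. JreChr08G11857 had 225, 245 and 223 FPKM at 91 DAP over 47.0 to 82.7 FPKM in the other 12 libraries. The former was a gene nearly silent at 35 DAP, and the latter a gene expressed at every stage with a 3.29-fold peak. JreChr08G11857 rose from 35 to 63 DAP by 0.42 ± 0.16 on the log2 scale (SE, limma, adjusted p = 0.0436), a call lost under 13 alternatives, 8 of which left out a library (any at 35 DAP, replicate 1 or 2 at 63 or 91 DAP, or replicate 1 at 119 DAP; adjusted p = 0.0504 to 0.184). Between 35 and 147 DAP it differed by 0.15 ± 0.16 (adjusted p = 0.424, and 0.0301 with median-ratio scaling).

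Among the 10 largest gaps, JreChr07G11166 (chromosome 7, 26700220 to 26700993) had the sharpest end. Its levels were 7.17, 6.32 and 7.13 FPKM at 35 DAP, 34.1, 22.4 and 26.3 at 63 DAP, 94.5, 99.8 and 72.4 at 91 DAP, 28.0, 26.8 and 31.1 at 119 DAP, and 0.327, 0.442 and 1.02 at 147 DAP. The levels at 63 and 119 DAP overlapped, and between 119 and 147 DAP the gene fell by 4.24 in log2 units (SE 0.18, limma, adjusted p = 7.14e-09).

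JreChr10G11118 (chromosome 10, 27801468 to 27802365) held the second largest gap on an erratic record. It was listed at 0 in all libraries at 35 and 119 DAP, at 34.1, 0 and 23.3 FPKM at 63 DAP, at 56.4, 41.6 and 39.0 at 91 DAP, and at 26.2, 24.3 and 0 at 147 DAP. Replicates of a stage split between 0 and over 20 FPKM, and an exact 0 in FPKM files can be a failed estimate, so no fold is given. The remaining genes among the 10 largest gaps were JreChr13G12042 (12.2, 11.3 and 8.76 FPKM at 91 DAP, at most 2.85 elsewhere), JreChr10G11179 (11.5, 10.9 and 5.67, at most 2.20 elsewhere), JreChr03G12185 (6.39, 7.60 and 10.3, at most 3.29 elsewhere) and JreChr13G10941, which lies beside another member and is taken up with it.

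**Figure D3:**
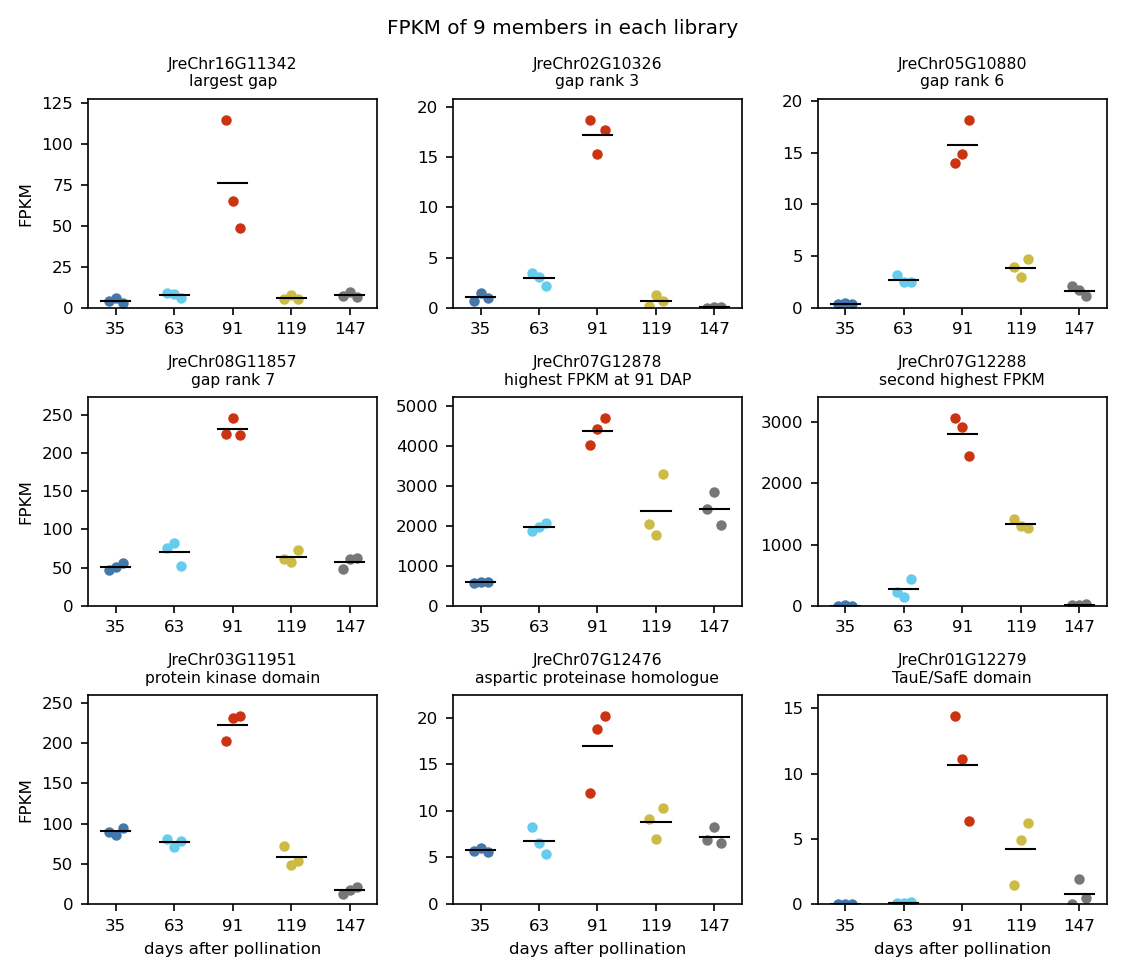
FPKM of 9 of the genes in each library (points, colored by stage) with the stage mean (black bars), each panel on its own axis from 0. JreChr08G11857 stands on a background of 47.0 to 82.7 FPKM, whereas JreChr07G12288 goes from 7.24 FPKM or less at 35 DAP to 2444 FPKM or more at 91 DAP.

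The 5 most abundant genes reached their level by different routes. JreChr07G12878 (chromosome 7, 8810496 to 8811302) had the highest level, with 4019, 4418 and 4697 FPKM at 91 DAP (mean 4378 ± 341, SD, n = 3). It measured 562, 604 and 598 FPKM at 35 DAP, 1877, 1975 and 2062 at 63 DAP, 2043, 1762 and 3303 at 119 DAP, and 2413, 2849 and 2034 at 147 DAP. Its transcript rose by 1.74 ± 0.23 (log2, SE) from 35 to 63 DAP (limma, adjusted p = 2.51e-05) and outside the peak it then held 1762 to 3303 FPKM, with a log2 change of 0.08 ± 0.23 from 119 to 147 DAP (adjusted p = 0.834).

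JreChr07G12288 (chromosome 7, 35847631 to 35850405) had the next highest level and the widest swing of the 38 genes named here. It measured 3.998, 7.24 and 3.25 FPKM at 35 DAP, 223, 146 and 445 at 63 DAP, 3068, 2922 and 2444 at 91 DAP, 1415, 1305 and 1268 at 119 DAP, and 6.90, 14.8 and 29.3 at 147 DAP. No library of a stage overlapped those of another stage except between 35 and 147 DAP. Between 35 and 63 DAP the transcript rose by 5.45 ± 0.43 in log2 units (SE, limma, adjusted p = 1.44e-07), was 2.44 ± 0.43 higher at 119 than at 63 DAP (adjusted p = 0.000617) and fell by 6.41 from 119 to 147 DAP (SE 0.43, adjusted p = 1.83e-07). Each of these was the largest change past the test, in its direction, among the 100 genes.

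JreChr01G11829 and JreChr08G11409 fell well below their starting level by maturity, and JreChr01G13490 did not. In the libraries of 35, 91 and 147 DAP, JreChr01G11829 averaged 253 ± 10.5, 1684 ± 161 and 147 ± 24.0 FPKM (SD, n = 3). JreChr08G11409 averaged 252 ± 2.20, 1065 ± 80.6 and 68.5 ± 10.3 FPKM at the same stages. JreChr01G13490 averaged 91.1 ± 16.4, 1157 ± 146 and 455 ± 94.9 FPKM. Between the first and the last stage the log2 changes were -0.79 ± 0.16 for JreChr01G11829, -1.87 ± 0.17 for JreChr08G11409 and 2.30 ± 0.20 for JreChr01G13490 (SE, limma, adjusted p = 0.000489, 1.82e-07 and 1.22e-07).

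A described function was at hand for 8 of the 100 genes, all from the gene tables of the study, which cover genomic regions and gene groups of interest and hold 8.48% of the tested genes. Descriptions are by homology to rice and Arabidopsis. The largest gap among them belonged to JreChr03G11951 (chromosome 3, 35955185 to 35965011), which carries a protein tyrosine kinase domain and is matched to the Arabidopsis gene AT5G56890, while its rice description is that of a retrotransposon protein. Protein kinases pass signals by adding phosphate to other proteins. JreChr03G11951 measured 89.7, 86.3 and 94.7 FPKM at 35 DAP, 80.7, 71.4 and 78.2 at 63 DAP, 202, 231 and 233 at 91 DAP, 72.7, 49.1 and 53.0 at 119 DAP, and 12.9, 17.1 and 21.7 at 147 DAP. It was thus a gene of declining background with a pulse at 91 DAP, and from 35 to 147 DAP it fell by 2.35 on the log2 scale (SE 0.17, limma, adjusted p = 1.65e-08), the deepest such fall past the test among the 100.

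Transport, proteolysis and the cell wall were each represented by a single annotated gene. JreChr01G12279 (chromosome 1, 4127187 to 4132926) has the TauE/SafE domain, known from bacterial exporters of sulfite and related anions. It was listed at 0, 0 and 0.0358 FPKM at 35 DAP and at 0.0917, 0.0686 and 0.184 at 63 DAP, then reached 14.4, 11.1 and 6.38 at 91 DAP, with 1.46, 4.94 and 6.18 at 119 DAP and 0, 1.91 and 0.469 at 147 DAP. Its onset fell between 63 and 91 DAP, later than for most of the genes, and the level at 119 DAP was above that at 63 DAP by 2.08 ± 0.40 (log2, SE, limma, adjusted p = 0.00127).

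JreChr07G12476 (chromosome 7, 3836878 to 3840603) is a homologue of aspartic proteinases of the oryzasin type, enzymes that cut proteins in acid compartments such as the vacuole. It had 11.9, 18.7 and 20.1 FPKM at 91 DAP, and every other library held 5.34 to 10.3 FPKM. None of the 4 comparisons between the other stages passed the test for this gene as fitted, with log2 changes from -0.24 to 0.34 (SE 0.20). From 35 to 147 DAP the call depended on the scaling. That change was 0.28 (limma, adjusted p = 0.24), but 0.505 with median-ratio scaling (adjusted p = 0.0251) and 0.74 with quantile normalization (0.0032). JreChr04G12063 (chromosome 4, 4887013 to 4888164), with the domain of the pollen Ole e I and extensin family found in secreted and cell wall proteins, was near the lower limit of the filter, with 1.69, 3.61 and 3.24 FPKM at 91 DAP and at most 1.31 elsewhere. It overlaps another gene model, JreChr04G12064, so fragments of the shared stretch may be divided between them.

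JreChr16G10775 (chromosome 16, 2539461 to 2540090), an ankyrin repeat protein, had 25.7, 25.2 and 24.8 FPKM at 91 DAP, the narrowest spread of the annotated genes at the peak. Ankyrin repeats are a scaffold for contacts between proteins. Before the peak the gene averaged 1.79 ± 0.635 FPKM (35 DAP) and 9.15 ± 2.23 (63 DAP), and after it 12.9 ± 5.41 (119 DAP) and 7.38 ± 0.994 (147 DAP; SD, n = 3). JreChr16G10779, a listed relative with the PF13962 domain on the same chromosome (2569355 to 2569916), met the 91 DAP criterion with rank 121, at 8.04, 5.76 and 6.70 FPKM. Of the 7 tested genes listed with this domain, the member included, 3 had their highest mean at 35 DAP, 3 at 91 DAP and 1 at 147 DAP.

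The other 3 annotated genes belong to a single family, the wound-induced proteins. These are short plant proteins named for transcripts that accumulate after wounding, and their biochemical role is little known. JreChr03G10824, JreChr03G10899 and JreChr03G10900 are each 273 bp long and lie on chromosome 3. JreChr03G10900 measured 13.9, 18.5 and 10.4 FPKM at 35 DAP, 84.9, 68.7 and 110.3 at 63 DAP, 179.7, 144 and 225 at 91 DAP, 64.6, 60.2 and 95.1 at 119 DAP, and 39.8, 57.3 and 50.4 at 147 DAP. JreChr03G10899 followed a similar course at a lower level, from 5.22 ± 1.47 FPKM at 35 DAP to 53.8 ± 14.2 at 91 DAP and 13.9 ± 0.737 at 147 DAP (SD, n = 3). JreChr03G10824 was the weakest, with 0.839 ± 0.438, 6.49 ± 1.23 and 2.16 ± 0.309 FPKM at these stages.

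All 3 wound-induced genes rose early and stayed above their starting level. From 35 to 63 DAP the log2 changes were 2.55 ± 0.24 for JreChr03G10900, 1.86 ± 0.29 for JreChr03G10899 and 1.10 ± 0.23 for JreChr03G10824 (SE, limma, adjusted p = 9.25e-07, 9.53e-05 and 0.00112). From 35 to 147 DAP they were 1.73 ± 0.24, 1.29 ± 0.29 and 0.80 ± 0.23 in the same order (adjusted p = 1.75e-05, 0.00105 and 0.00605). From 119 to 147 DAP none of the 3 passed the test.

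These 3 genes sit in a larger cluster whose genes followed different courses. The gene tables list 22 genes with the wound-induced domain, all on chromosome 3 between 18834712 and 19527905, and copies outside the listed regions were not counted here. The family was looked at after the values of its 3 members had been seen. Of its 18 tested genes, 11 had their highest stage mean at 91 DAP, 4 at 63 DAP, 3 at 147 DAP and none at 35 or 119 DAP. The 11 include the 3 members, which were chosen for this peak, and without them the count was 8 of 15, while 15.1% of all tested genes had their highest mean at 91 DAP. Unlike the members, some of the 8 ended below their starting level, such as JreChr03G10821 with means of 7.81 FPKM at 35 DAP, 27.0 at 91 DAP and 0.852 at 147 DAP. The strict criterion kept only 3 of the 11, because libraries of 91 DAP overlapped those of other stages in the rest. JreChr03G10825, for example, had 135, 79.4 and 218 FPKM at 91 DAP, and its lowest library there was under the 101 FPKM of replicate 3 at 63 DAP.

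The libraries of a stage differed jointly for much of the wound-induced family at every stage, most clearly at 91 DAP. At 91 DAP, replicate 3 was the highest of the 3 libraries in 16 and replicate 2 the lowest in 16 of the 17 genes that were above 0 at that stage. The sum over the 18 tested genes was 583, 401 and 787 FPKM in replicates 1, 2 and 3 at 91 DAP. At 63 DAP replicate 3 was the highest in 14 of 18, with sums of 337, 259 and 470 FPKM. At 119 DAP replicates 1, 2 and 3 were the highest in 2, 4 and 11 genes, and at 147 DAP in 3, 6 and 8. They were the lowest in 5, 9 and 3 genes at 119 DAP and in 12, 5 and 0 at 147 DAP. At 35 DAP replicate 3 was the lowest in 15 of 18 genes and replicate 2 the highest in 11, with sums of 127, 137 and 105 FPKM. The family's sum in replicate 3 at 63 DAP was thus above that in replicate 2 at 91 DAP, and the part of such library differences in the family's course was not tested. The 3 members share a length of 273 bp, 19 of the 22 listed models are under 300 bp (range 195 to 1616 bp), and if their sequences are alike, fragments may have been divided among copies, so the level of a single copy is uncertain.

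Members also lay beside members outside this family. The 100 genes include 5 pairs within 50 kb. JreChr10G11723 and JreChr10G11724 are 42 bp apart, and had 121, 139 and 93.5 FPKM and 194, 221 and 172 FPKM at 91 DAP, with the same order of replicates. Both fell from 119 to 147 DAP, by 2.01 and 1.98 on the log2 scale (SE 0.25 and 0.23, limma, adjusted p = 3.82e-05 and 2.23e-05). Neither passed the test from 35 to 63 DAP, though JreChr10G11723 did without replicate 2 at 63 DAP (limma, adjusted p = 0.0234). With 42 bp between the models and no strand given for them, the values may stem from a single transcribed unit.

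JreChr15G10106 and JreChr15G10107, 156 bp apart on chromosome 15, were both close to 0 at 35 DAP (at most 0.133 and 0.170 FPKM). They reached 14.2, 13.8 and 11.4 FPKM and 10.4, 11.2 and 13.5 FPKM at 91 DAP. They rose by 1.79 ± 0.19 and 1.88 ± 0.36 on the log2 scale from 35 to 63 DAP (SE, limma, adjusted p = 2.4e-06 and 0.000653). JreChr13G10941 and JreChr13G10945, 485 bp apart near the start of chromosome 13, are models of 180 and 267 bp. Their levels at 91 DAP were 8.86, 11.1 and 10.9 FPKM and 5.02, 4.19 and 3.87 FPKM. In both, replicate 1 at 63 DAP (4.57 and 3.34 FPKM) stood above the other libraries outside the peak, and no comparison between the other stages passed the test for either as fitted. With TPM, JreChr13G10941 was called lower at 147 than at 35 DAP (limma, adjusted p = 0.0373). Without replicate 3 at 63 DAP, JreChr13G10945 was called higher at 63 than at 35 DAP (0.0493).

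The pair JreChr01G13384 and JreChr01G13386 lies 19642 bp apart with 1 gene in between, and its genes did not share a course. JreChr01G13384 averaged 3.03, 3.42, 15.8, 5.37 and 4.34 FPKM from 35 to 147 DAP. JreChr01G13386 averaged 7.90 FPKM at the first of these stages, 27.5 at the third and 5.92 at the last. As fitted, the former had no comparison between the other stages past the test, whereas the latter rose from 35 to 63 DAP (log2 change 0.84 ± 0.20, SE, limma, adjusted p = 0.00277) and fell from 119 to 147 DAP (-1.23 ± 0.20, adjusted p = 0.000285). For the former, 119 versus 63 DAP (adjusted p = 0.0638) passed as a rise with median-ratio (0.0207) and quantile scaling (0.0101). So did 147 versus 35 DAP (adjusted p = 0.126, then 0.0137 and 0.000368). Some fits with a library left out also made these calls. Over all 100 genes, 20 of the 121 tested immediate neighbours that are not members (16.5%) had their highest mean at 91 DAP, close to the 15.1% of all tested genes.

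**Figure D4:**
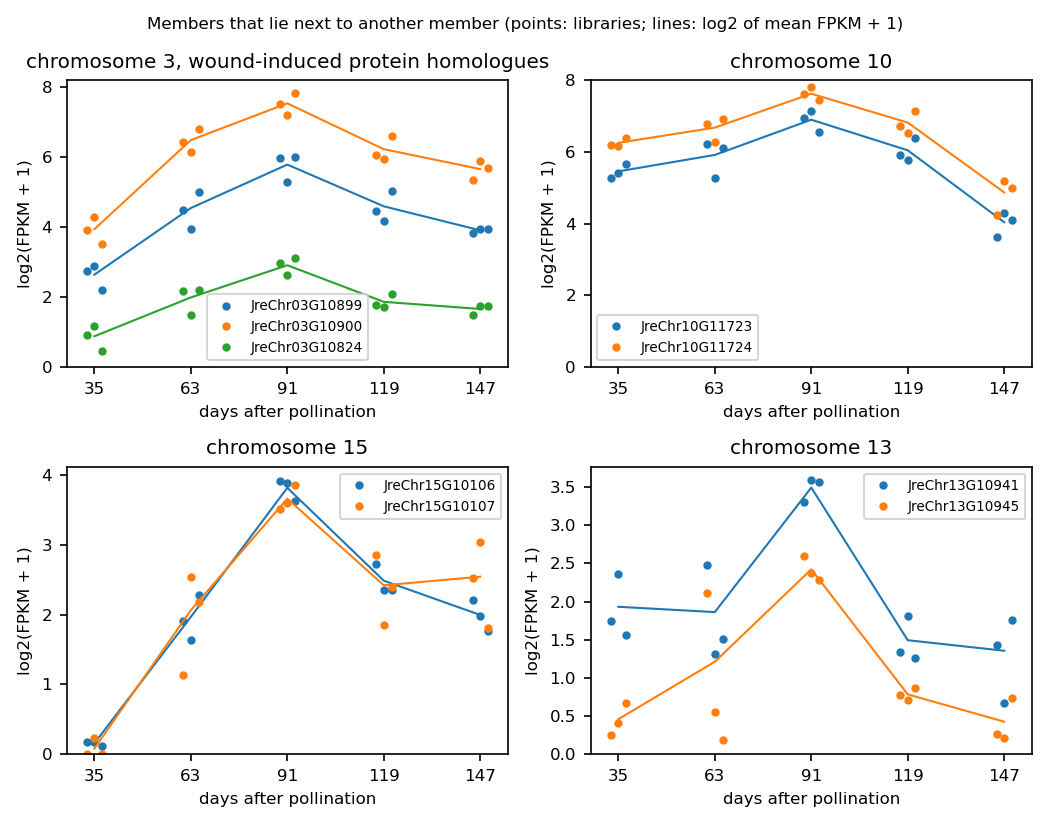
log2(FPKM + 1) by stage for 3 wound-induced genes on chromosome 3 and for the close pairs on chromosomes 10, 15 and 13; points are libraries and lines join the log2 of the stage mean FPKM + 1. The wound-induced genes run in parallel from 35 to 147 DAP, and both genes on chromosome 10 end below their 35 DAP level.

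The members were short as gene models. Their median span was 1532 bp, against 2994 bp over all tested genes, and 22 of the 100 were under 500 bp (180 to 438 bp), against 8.31% of the tested genes. Short models rest on fewer fragments at a given FPKM. The 22 short genes had a median gap of 1.19 and the other 78 a median gap of 0.99. Chromosomes 3 and 10 carried the most members, 13 and 11, with 9.35% and 5.15% of the tested genes.

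The stages other than 91 DAP were compared to describe the flanks of the peak, in a fit over all 22310 genes. The choice of the genes bears on these comparisons, because it bars genes with their maximum at 35 or 147 DAP (9078 and 4635 of the tested genes) and so favours rises before and falls after 91 DAP. The counts are therefore also set beside the other 3273 tested genes with their highest mean at 91 DAP, a comparison added after the counts had been seen, and both are descriptions. Genes with a smaller peak have less room to pass the test. From 35 to 63 DAP, 69 of the 100 genes rose and 1 fell at an adjusted p under 0.05, against 19.3% of all tested genes that rose, 27.4% that fell and 46.7% in either direction. Of the other genes highest at 91 DAP, 34.5% rose and 1.25% fell. The median log2 change was 0.95 in the 100, 0.25 in these and -0.07 over all tested genes. Before the peak, then, most of these genes were already on the rise. Over all tested genes, 41.4% of the calls in this comparison were rises, and 51.4% with quantile normalization, which moved the median to 0.04, so the direction of the background depends on the scaling.

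The steepest of these rises belonged to JreChr07G12288, given above, and to JreChr10G10613. JreChr10G10613 (chromosome 10, 19600348 to 19600608) measured 2.59, 3.66 and 1.04 FPKM at 35 DAP, 88.9, 76.6 and 97.4 at 63 DAP, 204, 203 and 256 at 91 DAP, 108, 80.9 and 102 at 119 DAP, and 78.1, 41.5 and 43.1 at 147 DAP. It rose by 4.77 ± 0.28 on the log2 scale (SE, limma, adjusted p = 5.65e-09), and at 147 DAP it was still 4.03 ± 0.28 above 35 DAP (adjusted p = 1.05e-08), the largest such rise past the test among the 100. JreChr09G11249 was next. Its mean went from 5.95 ± 0.870 FPKM (35 DAP) to 116 ± 8.98 (63 DAP) and 206 ± 13.1 (91 DAP) and ended at 101 ± 16.6 (147 DAP; SD, n = 3), 3.87 ± 0.18 above its start (log2, SE, limma, adjusted p = 2.26e-10).

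The gene that fell from 35 to 63 DAP was JreChr05G10175, from 4.04, 4.58 and 4.42 FPKM to 2.93, 2.65 and 3.21 FPKM, before 11.1, 9.23 and 8.73 FPKM at 91 DAP. Its log2 change was -0.45 ± 0.15 (SE, limma, adjusted p = 0.0226). The call was lost without replicate 2 or 3 at 35 DAP or replicate 2 at 63 DAP (adjusted p = 0.0698, 0.0619 and 0.0751). It was also lost with a pseudocount of 0.1 (adjusted p = 0.0552) and with quantile normalization (log2 change -0.21, adjusted p = 0.297). In the FPKM as given, all 3 libraries of 63 DAP were below all 3 of 35 DAP.

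Across the peak, 21 of the 100 genes differed past the test between 63 and 119 DAP. At 119 DAP, 12 genes stood higher than at 63 DAP and 9 lower, against 10.7% and 21.6% of all tested genes (32.3% in either direction) and 4.77% and 8.0% of the other genes highest at 91 DAP, and the median log2 change of the 100 was 0.06 (all tested genes -0.11). For 79 genes the difference was not past the test, which does not show that the levels were equal. The count of 21 was 11 without replicate 1 at 63 DAP. The largest differences past the test were, upward, those of JreChr07G12288 and JreChr01G12279 and, downward, those of JreChr10G11419 and JreChr02G10326.

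JreChr10G11419 (chromosome 10, 31189030 to 31192955) had its single lowest stage at 119 DAP, directly after the peak, as did none of the other 99 genes (JreChr10G11118 was listed at 0 at both 35 and 119 DAP). It measured 41.7, 61.9 and 37.7 FPKM at 35 DAP, 84.9, 58.2 and 26.6 at 63 DAP, 125, 129.5 and 121 at 91 DAP, 9.50, 18.3 and 23.2 at 119 DAP, and 25.2, 27.9 and 75.2 at 147 DAP. From 63 to 119 DAP it fell by 1.61 on the log2 scale (SE 0.44, limma, adjusted p = 0.0117). Its replicates spread widely outside the peak, and the call was lost without replicate 1 at 63 DAP (adjusted p = 0.0614) or replicate 1 at 119 DAP (0.0589).

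From 119 to 147 DAP, 51 of the 100 genes fell and 3 rose, against 21.8% and 14.1% of all tested genes and 28.1% and 2.02% of the other genes highest at 91 DAP. The median log2 change was -0.65 in the 100, -0.22 in the latter and -0.10 over all tested genes. The deepest falls past the test were those of JreChr07G12288 and JreChr07G11166, and JreChr08G11409 fell by 2.80 (SE 0.17, limma, adjusted p = 6.78e-08). Among the 3 that rose, JreChr13G11114 (chromosome 13, 25939869 to 25944776) had 5.88, 8.06 and 6.06 FPKM at 119 DAP and 18.8, 14.0 and 16.0 at 147 DAP, after 38.9, 36.6 and 32.1 at 91 DAP. It rose by 1.18 ± 0.19 (log2, SE, adjusted p = 0.000307), a second increase after the peak had passed. JreChr10G11419 also rose, by 1.18 ± 0.44 (adjusted p = 0.0488), with adjusted p from 0.0501 to 0.232 under the 15 alternatives that lost the call. These left out any of 10 libraries in turn or changed the fit, among them the fits without replicate 1 at 119 DAP (0.197) and without replicate 3 at 147 DAP (0.232).

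Taking both flanks, 34 of the 100 genes rose from 35 to 63 DAP and fell from 119 to 147 DAP, against 6.15% of all tested genes and 13.5% of the other genes highest at 91 DAP. Of these, 28 showed no difference past the test between 63 and 119 DAP, the most frequent course of the 100. The next was a rise from 35 to 63 DAP with neither later comparison past the test, in 24 genes, followed by a fall from 119 to 147 DAP alone in 13. In 11 genes none of the 3 consecutive comparisons passed the test, which includes JreChr07G12476, JreChr13G10941, JreChr13G10945 and JreChr01G13384.

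**Figure D5:**
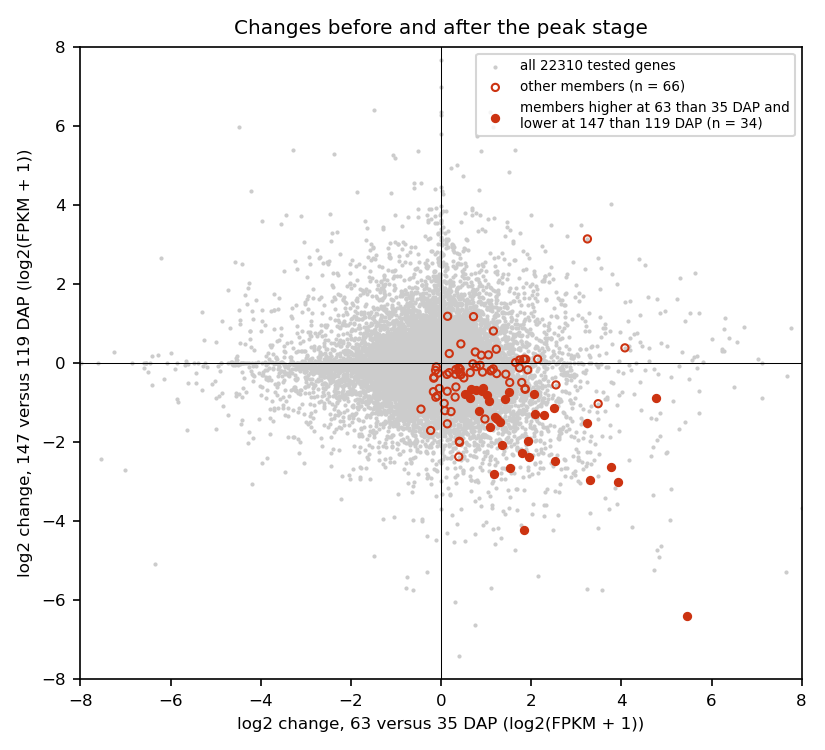
Change from 35 to 63 DAP (horizontal) against change from 119 to 147 DAP (vertical), both in log2(FPKM + 1), for all 22310 tested genes (grey; 10 lie outside the axes) and the 100 genes (red). The 34 filled points are genes that rose in the first comparison and fell in the second, and they lie to the lower right of the zero lines.

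From start to end of the series, 44 of the 100 genes were higher at 147 than at 35 DAP and 22 were lower, against 24% and 43.7% of all tested genes (67.7% in either direction) and 23.9% and 20.8% of the other genes highest at 91 DAP. The median log2 change was 0.40 in the 100 and -0.27 over all tested genes. This balance depends on how libraries are scaled, because the median of all tested genes moved to -0.53 when libraries were rescaled to equal sums (TPM), to -0.05 with median-ratio scaling and to 0.05 with quantile normalization. The 44 higher and 22 lower genes became 36 and 29, 57 and 18, and 56 and 15 under these scalings. JreChr07G11166, JreChr03G11951, JreChr08G11409 and JreChr05G10175 were among the lower genes, and JreChr10G10613, JreChr09G11249 and JreChr01G13490 among the higher.

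Gene lists read from the annotations of the study were set beside the 15.1% of all tested genes with their highest mean at 91 DAP. None of the 7 tested flavonoid genes, 22 cell division genes, 3 peroxidases and laccases or 2 photosynthesis genes had its highest mean at 91 DAP. Of 85 transcription factors 6 did (7.06%), of 16 pectin and cell wall enzymes 1 (6.25%), of 18 cuticle and lipid transfer genes 1 (5.56%), of 34 peptidases 5 (14.7%), of 8 sugar and starch genes 1 (12.5%) and of 4 embryo storage and oil body genes 1 (25%). Besides the aspartic proteinase JreChr07G12476, which is a member, the strict criterion was met by the aspartyl protease JreChr16G10712 (rank 578) and by JreChr05G12917 (rank 332), the sugar and starch gene. JreChr05G12917 is a homologue of MtN3, a family of sugar transporters also called SWEET, and averaged 28.0, 600.4, 1056, 776 and 697 FPKM from 35 to 147 DAP. Its transcript stayed high after 91 DAP, and its gap of 0.45 kept it out of the 100.

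The limit at 100 cut through a continuum. The last genes inside were JreChr16G10850 (gap 0.77), JreChr05G11145 (0.77) and JreChr14G10409 (0.76), and the first outside were JreChr10G11897, JreChr14G10091 and JreChr04G10227 (each 0.76). JreChr14G10409 had 356, 369 and 324 FPKM at 91 DAP over 109 to 247 elsewhere, and JreChr10G11897 had 78.2, 95.3 and 92.0 over 21.9 to 61.7.

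The 3 libraries of 91 DAP had close sums over the 100 genes (20588, 21742 and 20419 FPKM), but their order within genes differed from that over all tested genes. Replicate 2 was the lowest of the 3 in 16 of the 100 genes and the highest in 35, against 25.2% and 24.6% of all tested genes. Replicate 3 was the lowest in 49 of the 100 genes and the highest in 36, whereas over all tested genes it was the lowest in 33.6% and the highest in 45.7%. It also had the most photosynthesis transcript, with 60.2 FPKM against 25.9 and 26.4 FPKM in replicates 1 and 2, and the part of this difference in the choice of genes was not tested. Leaving out any library can only loosen the criterion. Without replicate 1 at 91 DAP 1048 genes met it and 87 of the 100 stayed among the 100 largest gaps, and without replicate 2 these numbers were 861 and 84. Without replicate 3 at 91 DAP, 1246 genes met the criterion instead of 735, and 66 of the 100 stayed among the 100 largest gaps. The other 34 genes still met the criterion with the remaining 2 libraries and lost their place to genes with larger gaps. At 91 DAP the median SD of log2(FPKM + 1) between libraries was 0.161 in the 100 genes and 0.196 over all tested genes. The choice of the genes favours libraries that agree at 91 DAP, so this lower spread is not read as a trait of the genes. At the other stages the median SD was higher in the 100 genes than over all tested genes. It was 0.153 against 0.126 at 35 DAP and 0.222 against 0.193 at 63 DAP. After the peak it was 0.249 against 0.228 at 119 DAP and 0.278 against 0.198 at 147 DAP.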

How the data were processed

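RNA-seq of walnut endopleura (15 libraries, 5 stages, 3 per stage) was analysed. Alignment (HISAT2 2.1.0) was to the J. regia genome the authors had assembled, StringTie 1.3.5 gave the levels, and the authors deposited FPKM values for 39414 genes; coordinates are those of that genome. FPKM are not counts and the absolute depth is unknown, so no count test or counting interval was used. Stages were taken from the labels.

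Values were transformed to log2(FPKM + 1), which understates changes of low genes. Genes with at least 1 FPKM in 3 libraries (22310) entered a linear model (lmFit and trended eBayes of limma 3.58.1, R 4.3.3), with all libraries in a single fit and Benjamini-Hochberg adjustment over all tested genes, at a threshold of 0.05. Counts, lists and plots were made in Python 3.11.15 with numpy 2.4.6, pandas 2.3.3 and matplotlib 3.10.9. In data simulated for 147 versus 35 DAP over 22310 genes, 71 of 100 genes changed by 1 and 94 of 100 changed by 2 (log2) were called, with 9 unchanged genes called. The changed genes were not drawn from low genes, and all others were left unchanged. In the data, 67.7% of the tested genes were called in this comparison, so these rates need not hold there.

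The members and lists were chosen with earlier results of these data known. Named genes were those annotated in the gene tables of the study, the 10 largest gaps, the 5 highest at 91 DAP, 3 on either side of the limit, the 2 largest rises and falls in each comparison, pairs within 50 kb, and list genes where a result turned on them; the wound-induced and ankyrin repeat relatives were added after values were seen. The RefSeq gene table matched 0 gene identifiers, so no names or sequences were taken from it. Alternatives were a pseudocount of 0.1, TPM, median-ratio and quantile scaling, no filter, a mean of at least 5 FPKM, eBayes without trend, a minimum log2 change of 1, the replicate number as a block, the 2 stages compared alone, and each library left out.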

Additional observations from a re-analysis of the deposited data

How the results depend on the processing

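The number of genes meeting the 91 DAP criterion (735) was 1164 with quantile normalization and ranged from 746 to 1246 when a library was left out, the highest without replicate 3 at 91 DAP. Of the 100 genes, 66 to 100 kept their place when a library was left out, 72 with a mean of at least 5 FPKM and 87 to 99 under the other settings. With a minimum log2 change of 1, the members called were 8 (119 versus 63 DAP), 33 (147 versus 119 DAP) and 42 (147 versus 35 DAP), and a mean of at least 5 FPKM left 13 in 119 versus 63 DAP; fewer genes can pass both settings by construction. Leaving out a library gave 60 to 71 calls (63 versus 35 DAP), 11 to 27 (119 versus 63 DAP), 47 to 54 (147 versus 119 DAP) and 57 to 70 (147 versus 35 DAP). Between these stages, the share of calls over all tested genes that were higher ran from 25.03% (TPM) to 50.7% (quantile) for 147 versus 35 DAP, around 35.4% as reported. It ran from 29.1% to 51.4% for 63 versus 35 DAP (41.4% as reported), from 27.2% to 47.4% for 119 versus 63 DAP (33.2%) and from 36.1% to 49.0% for 147 versus 119 DAP (39.3%).

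Of 3596 alternative values of the 38 named members, 3425 kept the call or its absence, 119 lost the call and 52 gained it. In 0 values did the direction change where either fit made a call. Changes of direction between uncalled values were not counted. Replicate numbers did not pair the libraries (10 of 30 pairs of deviations correlated above 0.1, median -0.03), and with the number as a replicate block the calls were 68, 17, 52 and 70 in the order above. Without a known depth, no limit of detection can be given for the genes listed at 0.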
